A study of Homo sapiens with 40 samples.

Results

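The genes of 3 ERBB receptors, EGFR, ERBB2 and ERBB3, were examined for open chromatin in breast cancer cells before and after treatment with their ligands. Peaks from 40 ATAC-seq libraries were merged where they overlapped by at least 1 bp, and 71600 regions found in at least 2 libraries were kept. A region was assigned to a receptor if its midpoint lay in the GENCODE gene body or within 50 kb of either end, which gave 48 of the 71600 regions. Of these, 20 belonged to EGFR, 13 to ERBB2 and 15 to ERBB3. The rule used position only and no measured level. A library with a peak in a region was counted as open there, and the lack of a peak does not show closed chromatin.

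ATAC-seq marks open chromatin with a transposase that inserts sequencing adapters where DNA is exposed. BT474 is an established breast ductal carcinoma line that overexpresses HER2, the product of ERBB2, and responds to trastuzumab, an antibody against HER2. BT474R is clone 5 of BT474, a trastuzumab-resistant line that was cultured in the antibody, and it represents 1 clone. Cells of both lines were serum starved and then given epidermal growth factor (EGF), heregulin (HRG) or vehicle (water, called control) for 1, 12 or 24 h, and cells collected after starvation served as the 0 h baseline. Each of the 20 groups held 2 libraries, so each line had 20. Cells were grown in wells and each treatment was done in duplicate. The labels do not say whether duplicates were separate cultures, so the p-values measure the spread between libraries, which may be technical. A treatment group is named here as in EGF-BT474R, for EGF-treated BT474R cells.

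The ERBB receptors are tyrosine kinases of the cell surface that act in pairs. EGFR binds EGF and related ligands, ERBB3 (HER3) binds heregulin and has little kinase activity of its own, and ERBB2 has no known ligand and is the preferred partner of the others. Signals from these pairs run through the RAS-MAPK and PI3K-AKT pathways and drive proliferation and survival of luminal breast epithelium. ERBB2 lies in a stretch of chromosome 17 that is often amplified in breast cancer, together with GRB7, STARD3, PGAP3 and MIEN1.

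In GRCh38, EGFR spans chr7:55019017-55211628 on the plus strand (192.6 kb). ERBB2 spans chr17:39687914-39730426 (42.5 kb) and ERBB3 spans chr12:56076799-56103505 (26.7 kb), both on the plus strand. Each region is named by the distance of its middle summit from the start of the canonical transcript, which is at 39700064 for ERBB2 and 56080165 for ERBB3, negative values lying upstream. Of the 48 regions, 13 lay in the EGFR body, 4 in the ERBB2 body and 3 in the ERBB3 body, and the rest lay in the 50 kb flanks. The density was 6.83 regions per 100 kb at EGFR, 9.12 at ERBB2 and 11.8 at ERBB3, against 2.43 over all regions. The median width was 705 bp at EGFR, 928 bp at ERBB3 and 2600 bp at ERBB2, against 551 bp over all regions. The ERBB3 and ERBB2 flanks hold other genes, so many of their regions are promoters of neighbours, whereas the EGFR regions other than the start site lay in its introns, its late exons or the flanks.

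**Figure D1:**
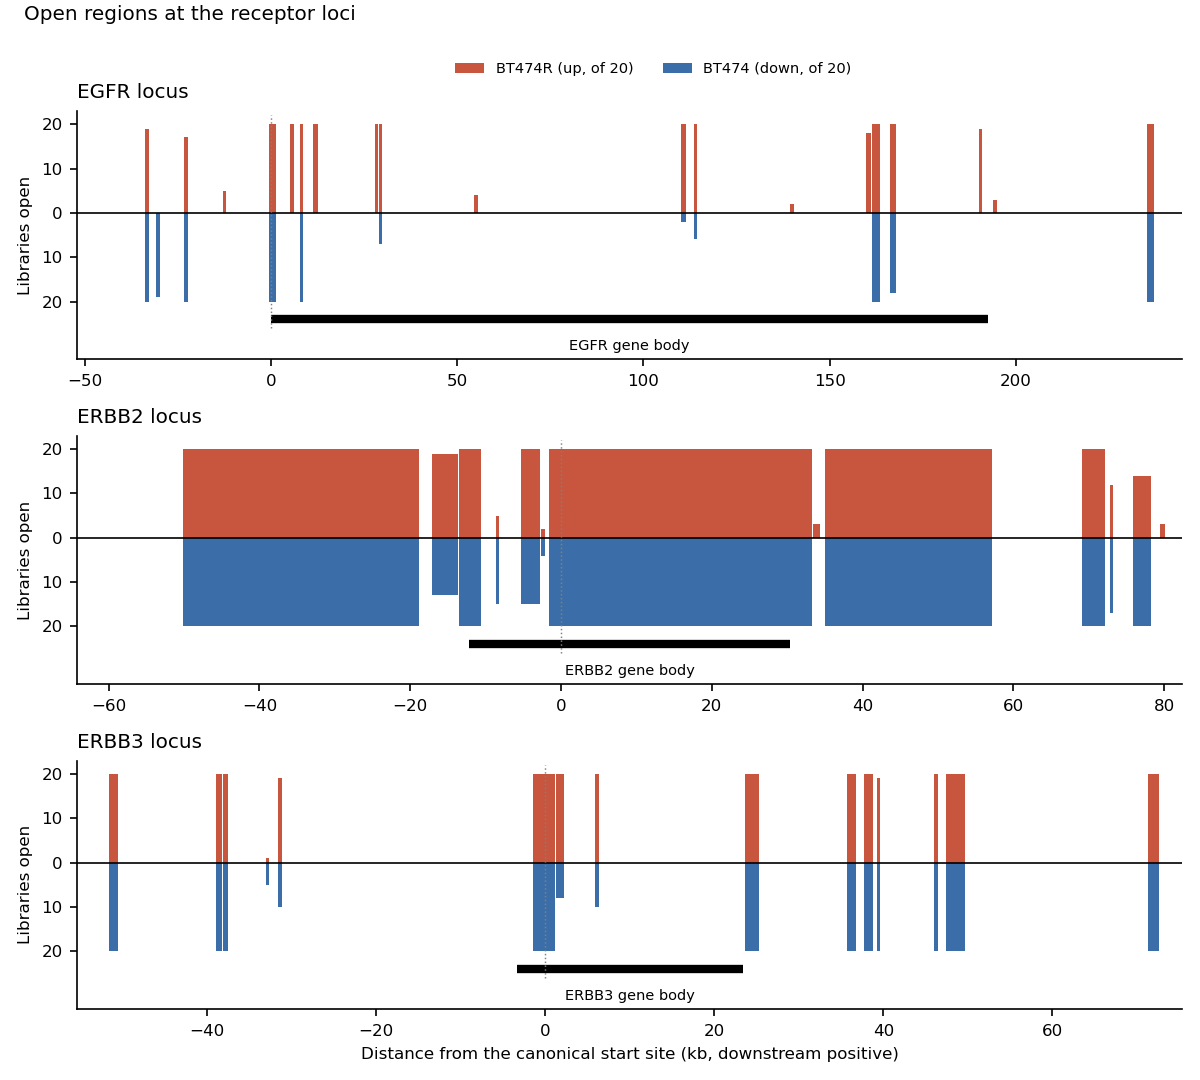
Open regions of EGFR, ERBB2 and ERBB3, drawn to scale in kb from the canonical transcript start. Bars rise with the number of BT474R libraries open (of 20) and fall with the number of BT474 libraries open (of 20), and the black bar is the gene body. At EGFR, bars at +5.5, +12.3 and +28.2 kb rise to 20 with none falling, and the −30.4 kb bar falls to 19 with none rising.

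Peaks in the 71600 regions numbered 32474 to 56481 per library (median 51300 in BT474 and 46600 in BT474R), and the fewest were in the 2 control-BT474R libraries at 12 h and the EGF-BT474R libraries at 12 h. In BT474 at 12 h, the controls held 49340 and 49719 peaks, against 52112 and 56481 after EGF and 52941 and 53363 after HRG. At 24 h the BT474 controls held 50478 and 52132, against 55046 and 56175 after EGF and 52358 and 52632 after HRG. Whether this bears on regions open only after a ligand was not tested. The lists hold no read totals, so sequencing depth was unknown. The promoter regions of 8 of 8 luminal breast epithelial markers were open in all 40 libraries, and those of 3 of 3 leukocyte markers in none. Of 3 basal markers, KRT5 was open in 7 BT474 and 14 BT474R libraries and KRT14 and TP63 in none. Of 4 endothelial and fibroblast markers, COL1A1 was open in all 40 libraries and PECAM1, CDH5 and PDGFRB in none.

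The EGFR sequences that the results turn on are the summit windows of 4 regions. The windows at +110.9 and +114.1 kb (intron 1) and at +167.4 kb (intron 20) each held 1 AP-1 word, TGANTCA, which reads the same on both strands and is shown in capitals. The window at −33.3 kb, upstream of the gene, held a TEAD word (GGAATG, here on the minus strand as CATTCC), also in capitals. All 4 are plus-strand hg38 sequence of 300 bp.
EGFR +110.9 kb, chr7:55129785-55130084: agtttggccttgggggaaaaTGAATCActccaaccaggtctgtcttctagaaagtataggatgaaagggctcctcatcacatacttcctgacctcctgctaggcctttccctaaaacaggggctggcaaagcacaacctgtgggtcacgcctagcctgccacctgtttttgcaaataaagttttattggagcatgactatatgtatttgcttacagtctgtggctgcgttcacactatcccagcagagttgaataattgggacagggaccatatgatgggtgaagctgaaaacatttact
EGFR +114.1 kb, chr7:55132944-55133243: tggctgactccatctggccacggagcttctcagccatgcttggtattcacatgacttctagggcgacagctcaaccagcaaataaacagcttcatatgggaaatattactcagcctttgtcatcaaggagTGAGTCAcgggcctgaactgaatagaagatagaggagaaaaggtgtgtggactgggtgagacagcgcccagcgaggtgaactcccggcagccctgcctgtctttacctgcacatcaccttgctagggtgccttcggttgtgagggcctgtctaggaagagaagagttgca
EGFR +167.4 kb, chr7:55186272-55186571: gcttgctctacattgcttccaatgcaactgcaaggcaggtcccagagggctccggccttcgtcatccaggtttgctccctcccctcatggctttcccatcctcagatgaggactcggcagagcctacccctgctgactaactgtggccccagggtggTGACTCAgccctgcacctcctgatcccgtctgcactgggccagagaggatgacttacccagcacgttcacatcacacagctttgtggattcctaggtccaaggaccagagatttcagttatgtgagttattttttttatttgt
EGFR −33.3 kb, chr7:54985530-54985829: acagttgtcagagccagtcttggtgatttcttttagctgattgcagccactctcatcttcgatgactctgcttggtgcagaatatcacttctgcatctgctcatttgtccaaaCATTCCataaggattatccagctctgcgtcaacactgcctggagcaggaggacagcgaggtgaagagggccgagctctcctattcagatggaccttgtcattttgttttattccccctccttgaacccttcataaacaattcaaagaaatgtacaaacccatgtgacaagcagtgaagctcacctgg

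AP-1 is the factor family of FOS and JUN, and TEAD factors bind DNA with YAP and TAZ. Searched on both strands in 300 bp windows, the AP-1 word was in 7 of 20 EGFR, 3 of 13 ERBB2 and 2 of 15 ERBB3 regions, and in 19.2% of all regions. The TEAD word was in 5, 3 and 2 regions and in 18.8% of all regions. A match is a description of letters, not a bound site.

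The promoter windows shown here for EGFR and ERBB2 differ in base content. The RefSeq promoter windows (GRCh38.p14, plus strand, 300 bases around the annotated start) are shown for EGFR, with GC boxes (GGGCGG or its complement CCGCCC) in capitals, and for ERBB2, with ETS words (CCGGAA or TTCCGG) in capitals. The ERBB2 window is at the upstream alternate start. The table had no ERBB3 entry.
EGFR promoter, chr7:55018767-55019066: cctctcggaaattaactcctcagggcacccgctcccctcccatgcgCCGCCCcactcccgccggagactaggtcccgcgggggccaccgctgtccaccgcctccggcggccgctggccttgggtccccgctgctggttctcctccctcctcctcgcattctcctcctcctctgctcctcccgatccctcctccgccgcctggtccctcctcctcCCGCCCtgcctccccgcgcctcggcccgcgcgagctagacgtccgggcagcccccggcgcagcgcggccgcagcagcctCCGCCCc
ERBB2 promoter, chr17:39687844-39688143: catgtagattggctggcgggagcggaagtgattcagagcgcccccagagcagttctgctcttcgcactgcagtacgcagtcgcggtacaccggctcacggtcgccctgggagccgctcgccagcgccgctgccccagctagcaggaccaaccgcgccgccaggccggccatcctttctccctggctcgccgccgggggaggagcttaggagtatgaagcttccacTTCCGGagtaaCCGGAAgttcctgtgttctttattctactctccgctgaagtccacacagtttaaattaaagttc

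The EGFR window shown had a GC content of 75.3% and held 3 GC boxes, and the ERBB2 window had a GC content of 60.7% and held 2 ETS words. A second EGFR window, inside the gene (chr7:55109589-55109888, not shown), had a GC content of 42.0% and held 0 GC boxes. Over 35116 RefSeq promoters the mean GC content was 57.5%, a GC box was in 45.0% and an ETS word in 17.2%.

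Within EGFR, more regions were open in BT474R than in BT474, and the 4 regions open in all 40 libraries ranked higher in BT474R. Of the 20 EGFR regions, 7 to 11 (median 8.0) were open in a BT474 library and 11 to 17 (median 15) in a BT474R library. For the 13 ERBB2 regions the counts were 6 to 11 (median 9.0) and 8 to 11 (median 9.0), and for the 15 ERBB3 regions they were 11 to 15 (median 12.5) and 13 to 14 (median 14). Peaks covered 1.18% to 2.31% (median 1.61%) of the EGFR gene body in BT474 and 3.52% to 6.48% (median 4.59%) in BT474R, with no overlap between the lines. These values were not tested, and more DNA copies of a locus, ERBB2 included, cannot be told apart from more open chromatin in these data.

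**Figure D2:**
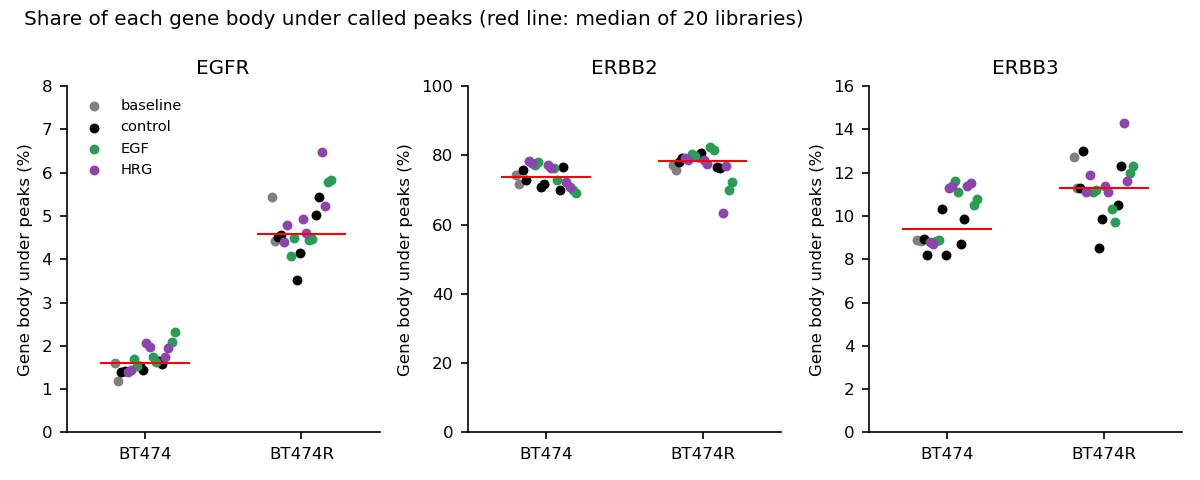
Share of each gene body under peaks (%), with 1 point per library and a line at the median of 20 libraries per cell line. The EGFR values of BT474 (at most 2.31%) lie below all BT474R values (at least 3.52%), while the ranges of the lines overlap for ERBB2 and ERBB3.

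The presence of a peak was compared between lines by Fisher's exact test (two-sided, 20 against 20 libraries) with Benjamini-Hochberg adjustment over the 32683 regions whose counts could pass. The background was large, since 71.7% of those regions were called, 27.2% as more often and 44.6% as less often open in BT474R. Of 10 EGFR regions that could be tested, 8 were open more often in BT474R and 1 less often. The members of this group were spread over the gene body, from intron 1 to the last exon.

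The regions at +5.5 kb (chr7:55024234-55025053), +12.3 kb (chr7:55030400-55031621) and +28.2 kb (chr7:55047028-55047532), all in intron 1, were open in 20 of 20 BT474R and 0 of 20 BT474 libraries (Fisher's exact test, adjusted p = 1.91e-10 each). Such an all-or-none pattern held for 685 of all regions (0.957%), and its reverse for 1803 (2.52%). Where open, they had middle ranks. Each peak score was ranked within its own list, from 0 for the lowest to 100 for the highest, which is called the list percentile. The list percentile in BT474R was 29.4 to 58.0 at +5.5 kb, 46.0 to 77.8 at +12.3 kb and 1.57 to 45.6 at +28.2 kb.

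Further into intron 1, the regions at +110.9 kb (chr7:55129193-55130345) and +114.1 kb (chr7:55132639-55133494) were open in all 20 BT474R libraries. In BT474 they were open in 2 libraries (adjusted p = 2.32e-08, Fisher's exact test) and 6 libraries (adjusted p = 1.19e-05, Fisher's exact test). Their list percentiles in BT474R ran from 50.6 to 93 (median 78.3) at +110.9 kb and from 43.6 to 93 (median 78.6) at +114.1 kb. The few BT474 peaks were low in their lists, at 8.86 and 10.4 for +110.9 kb and 0.904 to 29.3 for +114.1 kb. The +29.3 kb region (chr7:55048209-55048799) was open in 20 BT474R libraries (list percentile 43.2 to 70.5) and 7 BT474 libraries (mean 10.3), with an adjusted p of 4.05e-05 by Fisher's exact test.

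In the second part of the gene, the +160.0 kb region (intron 19, chr7:55178877-55180231) was open in 18 BT474R and 0 BT474 libraries (Fisher's exact test, adjusted p = 2.32e-08). The +190.5 kb region, in exon 28 (chr7:55209263-55209742), was open in 19 and 0 libraries (Fisher's exact test, adjusted p = 2.64e-09). The reverse held upstream at −30.4 kb (chr7:54988556-54988865), which was open in 0 BT474R and 19 BT474 libraries, at a list percentile of 5.64 to 33.4 (Fisher's exact test, adjusted p = 2.64e-09). The −12.3 kb region was open in 5 BT474R libraries and no BT474 library and did not pass (Fisher's exact test, adjusted p = 0.0597). The regions at +55.1, +139.7 and +194.0 kb were open in 4, 2 and 3 BT474R libraries and could not pass the test.

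**Figure D3:**
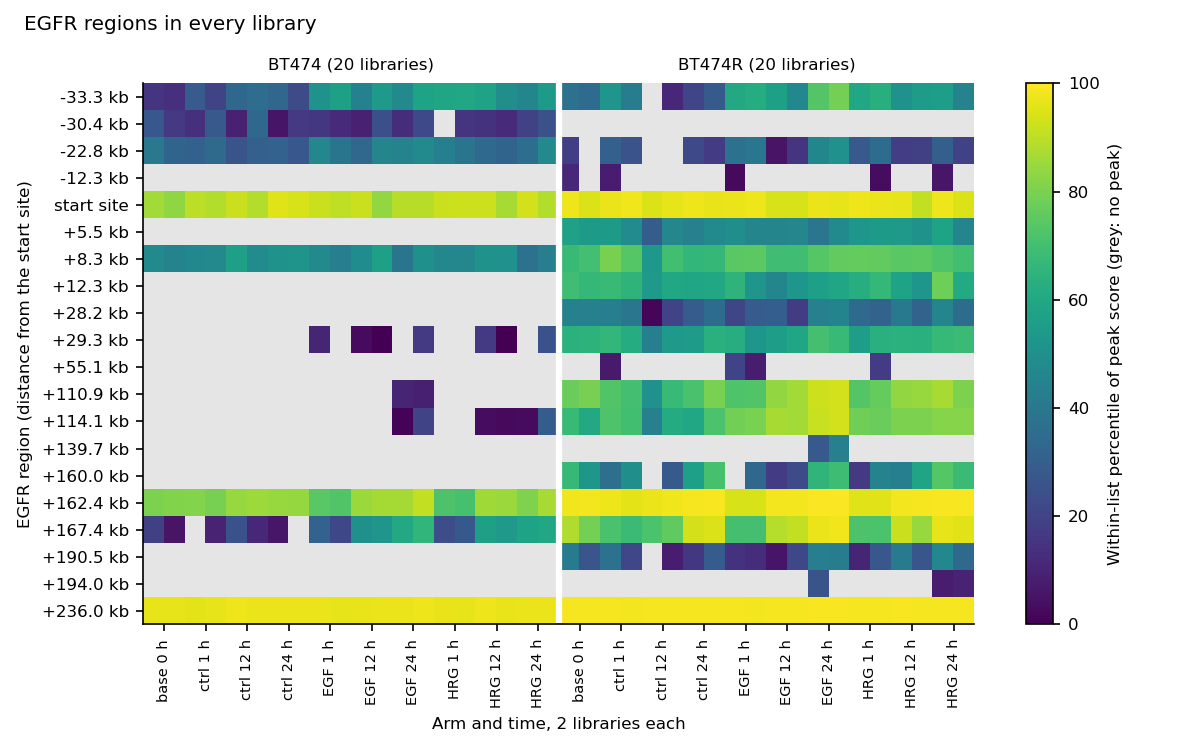
List percentile of each of the 20 EGFR regions (rows, by distance from the start in kb) in each of the 40 libraries (columns), with grey where no peak was called. The regions at +5.5, +12.3 and +28.2 kb are grey in all BT474 columns and filled in all BT474R columns.

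The 4 EGFR regions open in all 40 libraries were compared by rank. Their scores were ranked in each library among the 25166 regions open everywhere, which is called the common-region percentile, and tested with limma (Benjamini-Hochberg adjustment over the 25166). This comparison called 81.8% of all regions, 40.5% as higher and 41.3% as lower in BT474R. All 4 EGFR regions were called higher in BT474R, with a median difference of 21.8 points against −0.152 over all regions.

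The start-site region (chr7:55018555-55020483), the promoter of the receptor gene, had list percentiles of 83.4 to 95.1 (median 90.3) in BT474 and 90.7 to 97.7 (median 96.8) in BT474R. The ranges overlapped, and all 20 BT474R libraries lay above the BT474 median. Its common-region percentile was 80.0 in BT474 and 93.1 in BT474R, a difference of 13.1 ± 1.33 (SE, limma, adjusted p = 1.13e-10). Of all regions, 15.6% rose by as much or more. When the score was divided by peak length the difference was 3.57 points and did not pass (limma, adjusted p = 0.448).

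The +8.3 kb region of intron 1 (chr7:55026872-55027428) had list percentiles of 37.3 to 56.9 (median 47.8) in BT474 and 53.5 to 79.5 (median 73.1) in BT474R. Its common-region percentile was 15.1 in BT474 and 50.5 in BT474R, a difference of 35.4 ± 1.54 (SE, limma, adjusted p = 5.6e-20), which 2.23% of all regions matched or exceeded.

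The +162.4 kb region (chr7:55180352-55182632), with its summit in exon 20, had list percentiles of 70.9 to 90.7 (median 84.2) in BT474 and 94.0 to 99.4 (median 98.2) in BT474R. The lines did not overlap. Its common-region percentile was 65.0 in BT474 and 95.5 in BT474R, a difference of 30.5 ± 1.16 (SE, limma, adjusted p = 1.65e-21), which 3.45% of regions matched or exceeded. This exon encodes part of the kinase domain.

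The +236.0 kb region (chr7:55254355-55256217), downstream of the gene, was the strongest of the locus in BT474, with list percentiles of 95.9 to 97.5, and reached 98.4 to 99.0 in BT474R. Its common-region percentile was 93.6 and 97.7, a difference of 4.11 ± 0.144 (SE, limma, adjusted p = 1.55e-22), and 34.1% of regions rose by as much.

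**Figure D4:**
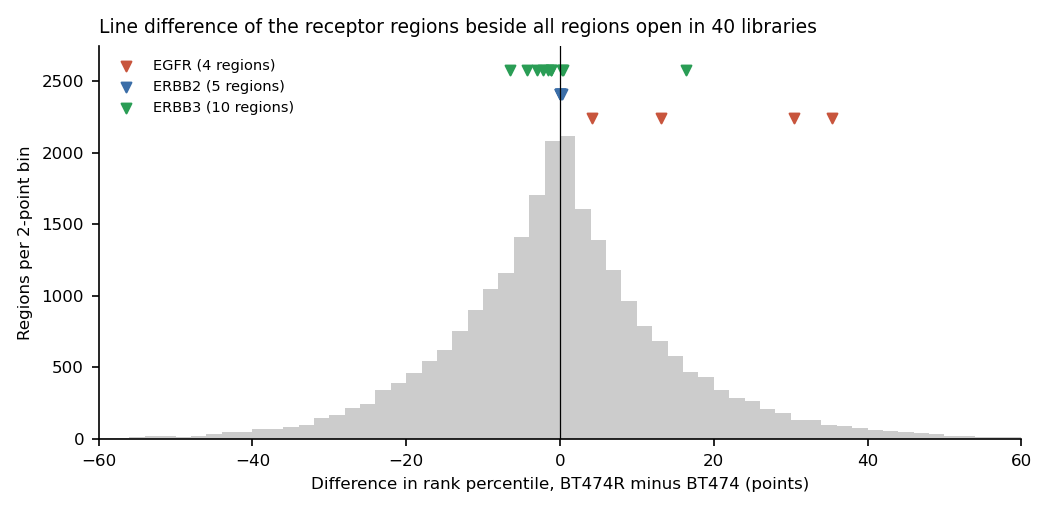
Difference in common-region percentile between BT474R and BT474 for the 25166 regions open in all 40 libraries (bars, in bins of 2 points, axis limited to 60 points either way), with triangles at the 19 receptor regions. The 4 EGFR triangles lie at 4.11 to 35.4 points, those of ERBB2 lie near 0, and most of ERBB3 lie below 0.

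The effect of ligands was tested by comparing the 6 libraries of a ligand with the 6 control libraries of the same line over 1, 12 and 24 h. Among the 19 receptor regions open in all 40 libraries (4 EGFR, 5 ERBB2, 10 ERBB3), limma called 1 for EGF in BT474 and 0 for HRG in BT474, EGF in BT474R and HRG in BT474R. The shares of all regions called were 17.1%, 20%, 16.6% and 2.83%. At an unadjusted p under 0.05 the same comparisons held 3, 3, 0 and 2 members. The difference between lines in ligand effect was called at 0 of 19 members for both ligands (3.46% of all regions for EGF and 1.61% for HRG), with 3 and 4 members at an unadjusted p under 0.05.

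The single call was the +8.3 kb region in EGF-BT474, where the common-region percentile was 13 against 18.6 in controls, a difference of −5.67 ± 1.73 (SE, limma, adjusted p = 0.0411). It was lost in 15 of 20 fits that left out 1 library. For HRG in BT474 the same region differed by −5.1 points (adjusted p = 0.0552, limma) and the +162.4 kb region by −5.8 points (adjusted p = 0.0638, limma).

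At single time points, with 2 libraries against 2, limma called members in 5 of 12 comparisons. In the other comparisons it called 0, namely EGF-BT474 and HRG-BT474 at 12 h (6.11% and 8.88% of all regions called), EGF-BT474R at 12 and 24 h (7.37% and 8.85%) and HRG-BT474R at 1, 12 and 24 h (0.00795%, 2.22% and 0.0318%). Over the 3 times, an unadjusted p under 0.05 was reached in BT474 by 9 members for EGF and 6 for HRG, and in BT474R by 4 for EGF and 5 for HRG. HRG-BT474 at 1 h had a common-region percentile of 49.0 at +162.4 kb against 63.5 in controls (difference −14.5 ± 3.55 SE, limma, adjusted p = 0.0223; 8.88% of regions called). EGF-BT474R at 1 h had 88.6 at the same region against 93 (difference −4.33 ± 0.807 SE, limma, adjusted p = 0.0264; 0.854% called). The call in HRG-BT474 was lost without any of its 4 libraries and that in EGF-BT474R without 3 of its 4. With the score divided by peak length the HRG-BT474 difference turned to 5.77 points and the EGF-BT474R difference was −1.31 points, and neither passed (limma, adjusted p = 0.923 and 1.0). At 24 h the +8.3 kb region was lower in EGF-BT474 by 9.95 ± 3.0 points (SE, limma, adjusted p = 0.0407; 16% called) and in HRG-BT474 by 10.7 ± 3.0 points (SE, limma, adjusted p = 0.0329; 14.3% called). The first was lost in 13 of 20 fits without 1 library and the second without any of the 4 libraries compared.

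Most EGFR regions are not open in both lines and were outside those tests. They were therefore ranked among the regions open in all 20 libraries of a line, 36820 in BT474 and 28260 in BT474R. This ranking was chosen after seeing the data. It is called the BT474-region or BT474R-region percentile. In BT474, limma called 3 of 23 members for EGF (17.5% of all regions) and 4 of 23 for HRG (22.4%). In BT474R it called 3 of 29 for EGF (19.4%) and 3 of 29 for HRG (3.67%). The share of members was below that of all regions in all but the last of these comparisons.

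The +114.1 kb region of intron 1 ranked higher after both ligands in BT474R. Its list percentiles in BT474R were 60.4 and 67.8 at baseline. In controls they were 69.9 and 72.5 at 1 h, 43.6 and 61.5 at 12 h, and 60.1 and 71.5 at 24 h. After EGF they were 78.7 and 79.7 at 1 h, 86.3 and 87.1 at 12 h, and 91.5 and 93 at 24 h. After HRG they were 77.1 and 78.4 at 1 h, 80.1 and 80.2 at 12 h, and 81.8 in both libraries at 24 h. All 6 libraries of each ligand lay above all controls, and the EGF pairs at 12 and 24 h lay above the HRG pairs. The BT474R-region percentile was 77.7 after EGF against 45.7 in controls, a difference of 32.0 ± 2.44 (SE, limma, adjusted p = 3.57e-06; 30.1 to 34.0 when 1 library was left out). After HRG it was 65.4, a difference of 19.8 ± 2.44 (SE, limma, adjusted p = 0.00105; 17.8 to 21.7 when 1 library was left out). With the score divided by peak length the differences were 55.5 and 40.8 points, and both passed. The control and EGF libraries of BT474R at 12 h were those with the fewest peaks. The EGF difference at 24 h, which does not use them, was 37.1 ± 4.23 (SE, 86.1 against 49.0, limma, adjusted p = 0.000191; 10.8% of regions called). For HRG the only single-time call at this region was at 12 h, which uses the 12 h controls (2.83% of regions called). It was not called for HRG at 1 or 24 h, where 0.0% and 0.0814% of all regions were called.

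In BT474 the +114.1 kb region had no peak in baseline, control or 1 h libraries. It was open only after a ligand, in both EGF libraries at 24 h (list percentiles 0.904 and 20.4), both HRG libraries at 12 h (2.68 and 3.31) and both HRG libraries at 24 h (3.08 and 29.3). These counts were too few for Fisher's exact test of 6 against 6 libraries to pass in either arm. The lists in which the region was open held more peaks than the controls of their times, and the cause was not tested.

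The +110.9 kb region, close by, had list percentiles in BT474R of 77.3 and 79.4 at baseline. In controls they were 70.3 and 72.8 at 1 h, 50.6 and 67.9 at 12 h, and 71.4 and 79.9 at 24 h. After EGF they were 72.3 and 72.9, 83.9 and 86.1, and 92.4 and 93 at the 3 times. After HRG they were 73.2 and 76.5, 83.9 and 84.4, and 80.3 and 86.9. The 1 h values of both ligands lay within the range of the controls, and the 12 and 24 h values lay above it. The BT474R-region percentile was 73.6 after EGF against 53.3 in controls, a difference of 20.2 ± 2.45 (SE, limma, adjusted p = 9.69e-05), and after HRG the difference was 13.6 (limma, adjusted p = 0.00937). The HRG call was lost when the score was divided by peak length (10.1 points, limma, adjusted p = 0.569). The EGF difference at 24 h was 23.5 points (limma, adjusted p = 0.00345) and was lost without control-BT474R replicate 1 at 24 h (limma, adjusted p = 0.0515). For HRG the only single-time call at this region was at 12 h, which uses the 12 h controls. In BT474 the region was open only in the 2 EGF libraries at 24 h.

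The +167.4 kb region (intron 20, chr7:55185312-55186885) was open in 18 BT474 and all 20 BT474R libraries. In BT474 its list percentiles were 5.38 and 18.8 at baseline. In controls they were 9.88 in the 1 open library at 1 h, 11.2 and 25.3 at 12 h, and 5.99 in the 1 open library at 24 h. After EGF they were 21.5 and 31.3 at 1 h, 50.1 and 52.2 at 12 h, and 60.2 and 66.0 at 24 h. After HRG they were 23.6 and 27.4, 54.2 and 56.8, and 58.1 and 59.6. Both ligands were thus above all control and baseline libraries at 12 and 24 h, and at 1 h they overlapped the highest control. In BT474R the region was already high, with control pairs of 68.2 and 71.1, 71.5 and 75.6, and 93.6 and 94.7 at the 3 times. The EGF pairs in BT474R were 70.6 and 70.7, 88.7 and 90.8, and 97.2 and 97.8.

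Where a region without a peak was given a list percentile of 0 and all 71600 regions were fitted with limma, the +167.4 kb region in BT474 had a mean of 46.9 after EGF against 8.74 in controls, a difference of 38.1 ± 3.36 (SE, adjusted p = 4.56e-05; 14.1% of regions called). For HRG the difference was 37.9 (limma, adjusted p = 3.58e-05; 15.1% called). The fitted ligand difference at this region was smaller in BT474R than in BT474, by 31.3 points for EGF (limma, adjusted p = 2.78e-06, 9.11% called). For HRG it was smaller by 31.6 points (limma, adjusted p = 4.9e-06, 6.34% called). The list percentile there was at least 68.2 in every BT474R library, which left no room for a rise of 38.1 or 37.9 points. In BT474 the region was open in 4 of 6 controls, and the others stood at 0. The scale thus limits this comparison between lines, and whether the response differed beyond that limit was not tested. In the ranking within BT474R the EGF difference was 10.4 ± 2.02 (SE, 77.4 against 67.0, limma, adjusted p = 0.0026), and it was lost when the score was divided by peak length (1.42 points, limma, adjusted p = 0.929).

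In the same fit over all regions, the ligand effect was larger in BT474R at +114.1 kb for EGF, by 19.3 points (limma, adjusted p = 0.018), and at +110.9 kb, by 11.4 points for EGF (limma, adjusted p = 0.02) and 12.0 points for HRG (limma, adjusted p = 0.0188). Most BT474 libraries stood at 0 there.

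Upstream of the gene, the −33.3 kb region (chr7:54985422-54986007) was higher after both ligands in both lines. In BT474 its list percentiles were 13.8 and 15 at baseline and 20.5 to 35.8 (median 31.0) in the 6 controls. They were 44 to 57.9 (median 52.5) after EGF and 45.5 to 59.6 (median 56.2) after HRG, with no overlap with the controls. In BT474R they were 34.9 and 37.7 at baseline and 11.7 to 52.0 (median 28.3) in the 5 open controls, against 46.8 to 79.0 (median 61.1) after EGF and 44.9 to 62.8 (median 55.4) after HRG. In BT474R the ranges overlapped, and 1 control library at 12 h had no peak.

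In BT474 the BT474-region percentile at −33.3 kb was 11.7 in controls, 33.0 after EGF (difference 21.2 ± 3.07 SE, limma, adjusted p = 0.000424) and 38.4 after HRG (difference 26.6, limma, adjusted p = 4.9e-05). Both differences were present by 1 h, at 30.1 points for EGF (4.19% of regions called) and 39.2 points for HRG (11.1% called), and the EGF call at 1 h was lost without EGF-BT474 replicate 2 (limma, adjusted p = 0.0968) or control-BT474 replicate 2 (limma, adjusted p = 0.0833) of that time. In BT474R, with all regions fitted and a missing peak as 0, the EGF mean was 63.1 against 25.8 (difference 37.3, limma, adjusted p = 1.26e-05; 13% called) and the HRG difference was 29.1 (limma, adjusted p = 0.000633; 5.03% called). The EGF effect in that fit was larger in BT474R than in BT474 by 14.5 points (limma, adjusted p = 0.0395). The BT474R control mean includes the 12 h controls, which were among the libraries with the fewest peaks. They stood at 11.7 in 1 library and at 0, for a missing peak, in the other. The difference between lines was not fitted without them. The +114.1, +110.9 and −33.3 kb comparisons of EGF and of HRG share their control libraries.

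**Figure D5:**
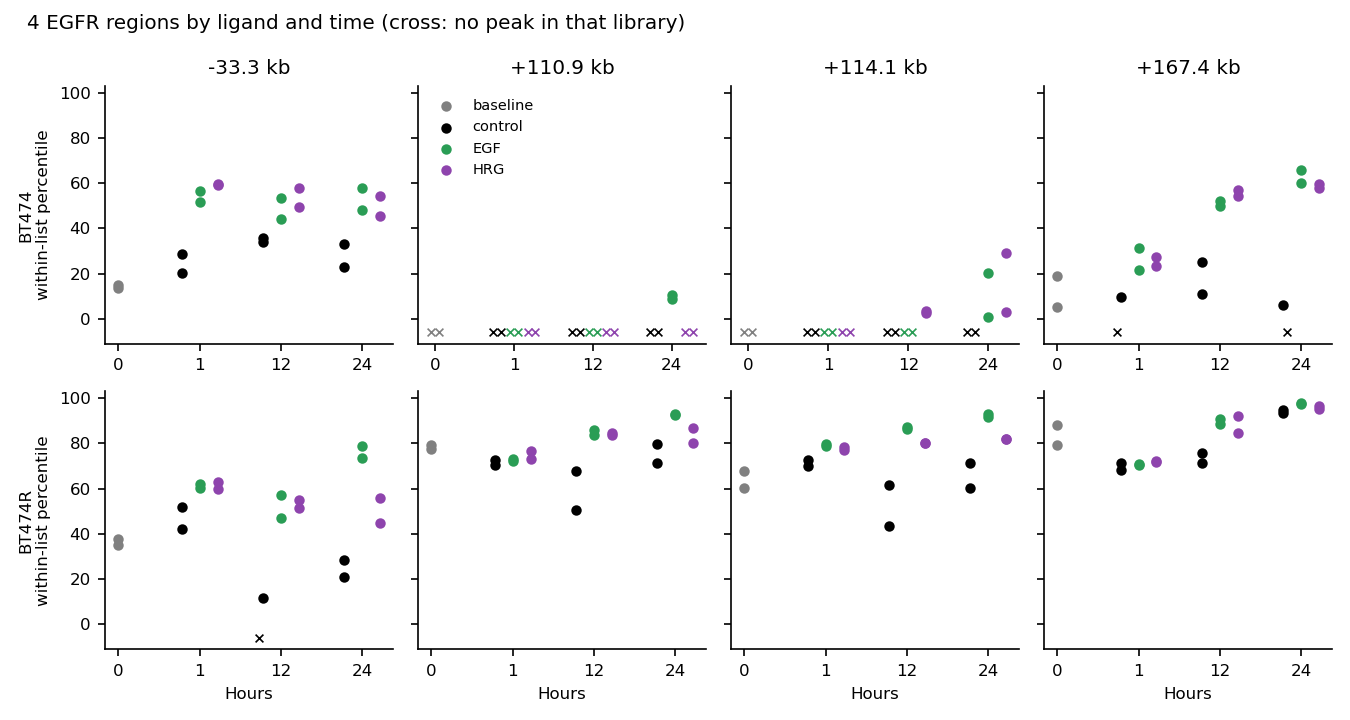
List percentile by time (0, 1, 12 and 24 h, evenly spaced) at 4 EGFR regions, −33.3, +110.9, +114.1 and +167.4 kb, for control, EGF and HRG in each line, with 1 point per library and a cross where no peak was called. At +114.1 kb in BT474R, EGF reaches 91.5 and 93 at 24 h against 60.1 and 71.5 in controls, and at +167.4 kb in BT474 both ligands exceed 50 from 12 h on.

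The next region downstream of it, at −22.8 kb, was open in 20 BT474 and 17 BT474R libraries. Its BT474-region percentile was higher after EGF by 9.45 points (limma, adjusted p = 0.0175) and after HRG by 7.92 points (limma, adjusted p = 0.0323). The EGF call was lost without EGF-BT474 replicate 2 at 12 h (limma, adjusted p = 0.0525) or control-BT474 replicate 1 at 12 h (limma, adjusted p = 0.0521), and the HRG call in 8 of 20 such fits. With the score divided by peak length, neither passed, and the HRG difference turned to −1.75 points (limma, adjusted p = 0.957). The +162.4 kb region was lower after HRG by 4.49 points of BT474-region percentile (limma, adjusted p = 0.04), a call lost in 11 of 20 such fits, and with the score divided by peak length the difference turned to 3.32 points (limma, adjusted p = 0.783).

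At +162.4 kb the 10 BT474R groups ranked above all BT474 groups, from 99.4 in EGF-BT474R at 24 h down to 71.5 in HRG-BT474 at 1 h, and 9 of 19 neighbouring pairs in that order overlapped. At the start site 18 of 19 neighbouring pairs overlapped, so the order of groups within a line could not be read there.

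Of the 13 ERBB2 regions, the 5 that were open in all 40 libraries were broad and near the top of the lists in both lines. The peak score is an area that grows with width. Peaks covered 69.0% to 78.4% (median 73.6%) of its gene body in BT474 and 63.4% to 82.4% (median 78.4%) in BT474R. A region of 34897 bp (chr17:39698500-39733396) held the canonical start and the gene up to its neighbour MIEN1, and it was the widest of all 71600 regions. Upstream, a region of 31301 bp (chr17:39649977-39681277) held the starts of STARD3, TCAP and PNMT. Downstream, a region of 22185 bp (chr17:39735041-39757225) held the start of GRB7, which encodes an adaptor that binds ERBB2.

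The best peak of the ERBB2 body region ranked 1 to 4 in its list (median 1.0 in BT474 and 2.0 in BT474R). The best peak of the STARD3 region ranked 1 to 9 (median 7.0) in BT474 and 1 in all 20 BT474R libraries. The best peak of the GRB7 region ranked 3 to 6. The first-ranked peak of the whole list lay in the ERBB2 locus in 39 of 40 libraries. Of the 20 highest peaks of each list, 4 to 6 lay in the locus, and 9 to 14 lay within 1 Mb of it.

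At this rank the percentile has little room to move. The 3 broad regions differed between lines by −0.00318, 0.00219 and 0.0169 points of common-region percentile and did not pass in limma. These values do not show that the lines were alike there. With quantile-normalized log2 scores, limma called all 5 ERBB2 regions open in all 40 libraries between the lines. The +70.0 kb region in intron 7 of IKZF3 (chr17:39769172-39772170) was higher in BT474R by 0.284 ± 0.0764 points (SE, limma, adjusted p = 0.00112), but the difference turned to −3.85 points when the score was divided by peak length (limma, adjusted p = 0.0255). The −12.2 kb region over the alternate ERBB2 start and PGAP3 (chr17:39686595-39689404) was higher by 0.16 ± 0.0549 points (SE, limma, adjusted p = 0.0087). Both calls were lost in limma without a mean-variance trend, an alternative chosen after seeing the data (adjusted p = 0.199 and 0.458).

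Of 6 ERBB2 regions that could be tested for presence, 0 were open more often and 2 less often in BT474R. The −8.4 kb region (chr17:39691539-39691849) was open in 5 BT474R and 15 BT474 libraries (Fisher's exact test, adjusted p = 0.00674). The +76.4 kb region in intron 7 of IKZF3 (chr17:39775958-39778253) was open in 14 BT474R and 20 BT474 libraries (Fisher's exact test, adjusted p = 0.0287), at list percentiles of 0.0131 to 50.7 and 65.7 to 88.1. The lines did not overlap there. All baseline and control libraries of both lines were open at +76.4 kb. The BT474R libraries without a peak were all EGF or HRG libraries of 12 and 24 h. The lower count in BT474R thus came from ligand-treated libraries, and a line difference in presence among untreated libraries was not seen. The −16.3 kb region (19 and 13 libraries) and the −4.7 kb region (20 and 15) did not pass (adjusted p = 0.0597 each, Fisher's exact test). At −4.7 kb the mean list percentile was 60.6 in BT474R and 24.4 in BT474. The +73.1 kb region in intron 7 of IKZF3 was open in 12 BT474R and 17 BT474 libraries and did not pass (Fisher's exact test, adjusted p = 0.185). The −2.5 kb region near the PGAP3 start was open in 2 and 4 libraries and did not pass (Fisher's exact test, adjusted p = 0.711). The regions at +34.0 and +79.7 kb were each open in 3 BT474R and 0 BT474 libraries, too few to be tested.

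The broad regions were also read in smaller pieces. With peaks trimmed to 400 bp around their summits, the locus held 60 regions, of which 4 were open in all 40 libraries and 40 could be tested for presence. Of these 40, 6 were open more often in BT474R and 12 less often (Fisher's exact test), against 26.9% and 41.4% of all testable trimmed regions. A trimmed region at −61.0 kb was open in 0 BT474R and 19 BT474 libraries, and 1 at +50.2 kb in 1 and 20 libraries (Fisher's exact test, adjusted p = 3e-09 for both).

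Limma called a ligand effect pooled over times at 0 of the 5 ERBB2 regions open in all 40 libraries. In the ranking within BT474, the +76.4 kb region was lower after both ligands. Its list percentiles were 79.9 to 88.1 (median 82.5) in controls, 71.9 to 79.2 (median 75.8) after EGF and 65.7 to 75.4 (median 71.7) after HRG, and neither ligand overlapped the controls. The BT474-region percentile was 65.6 after EGF against 77.8, a difference of −12.2 ± 2.14 (SE, limma, adjusted p = 0.00171), and 61.1 after HRG, a difference of −16.7 (limma, adjusted p = 0.000116). With the score divided by peak length they were −22.7 and −25.0 points, and both passed. In BT474R the +76.4 kb region was open in 6 of 6 controls, 2 of 6 EGF libraries and 4 of 6 HRG libraries. With such counts neither ligand could reach the threshold for presence. The −8.4 kb region in BT474 was open in all 12 ligand libraries, in 3 of 6 controls and in no baseline library. Its list percentile was 4.13 to 8.65 in the open controls, 16.1 to 37.9 after EGF and 21.1 to 32.5 after HRG. With a missing peak as 0 and all regions fitted, it was higher by 24.9 points after EGF (limma, adjusted p = 0.000756) and 23.6 points after HRG (limma, adjusted p = 0.000953). In BT474R the region was also open only after a ligand, in 3 EGF and 2 HRG libraries. Most BT474R libraries thus stood at 0 in that fit. The ligand effect in that fit was smaller in BT474R by 13.1 points for EGF (limma, adjusted p = 0.0464) and smaller for HRG as well (limma, adjusted p = 0.00379).

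ERBB3 was the receptor locus with the most regions open throughout, since 10 of its 15 regions had a peak in all 40 libraries. Its promoter region at −1.0 kb (chr12:56078750-56081317) had list percentiles of 97.6 to 98.9 in BT474 and 95.9 to 98.7 in BT474R. The lines overlapped. Its common-region percentile was 97.1 in BT474 and 95.6 in BT474R, a difference of −1.5 ± 0.254 (SE, limma, adjusted p = 2.73e-06). Of its 20 group means, 18 of 19 neighbouring pairs overlapped, from 98.7 in EGF-BT474 at 1 h to 96.1 in EGF-BT474R at 12 h.

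Regions within the ERBB3 gene were open more often in BT474R. The +1.9 kb region of intron 1 (chr12:56081419-56082346) was open in 20 BT474R and 8 BT474 libraries (Fisher's exact test, adjusted p = 0.000125), at list percentiles of 32.8 to 70.5 in BT474R. The 8 BT474 libraries were all EGF and HRG libraries of 12 and 24 h, and no control or baseline library was open. Their lists held more peaks than the controls of the same times, and the cause was not tested. With a missing peak as 0 and all regions fitted, the mean list percentile at +1.9 kb in BT474 was higher after EGF by 10.4 points (limma, adjusted p = 0.00864). The HRG difference of 6.22 points did not pass (limma, adjusted p = 0.0892). The +6.1 kb region of intron 3 (chr12:56086102-56086470) was open in 20 and 10 libraries (Fisher's exact test, adjusted p = 0.000953), a call that was lost at a peak score of at least 400 (Fisher's exact test, adjusted p = 0.0593). The −31.3 kb region (chr12:56048584-56049059) was open in 19 and 10 libraries (Fisher's exact test, adjusted p = 0.00591). Of the 4 ERBB3 regions that could be tested, 3 were thus open more often and 0 less often in BT474R. Peaks covered 8.18% to 11.6% of the ERBB3 gene body in BT474 and 8.51% to 14.3% in BT474R.

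Of the 10 regions open in all libraries, 1 was called higher and 4 lower in BT474R by limma, with a median difference of −1.32 points. The −51.0 kb region in intron 5 of IKZF4 (chr12:56028582-56029568) was higher by 16.4 ± 1.79 points of common-region percentile (SE, limma, adjusted p = 5.34e-10), and that call was lost when the score was divided by peak length (0.205 points, limma, adjusted p = 0.937). Lower regions besides the promoter were at RPS26 (−38.0 kb, −6.54 ± 1.23 SE, limma, adjusted p = 1.45e-05), at RPL41 (+36.1 kb, −2.97 ± 1.2 SE, limma, adjusted p = 0.0238) and at MYL6B (+71.7 kb, −4.23 ± 1.29 SE, limma, adjusted p = 0.00359). RPS26 and RPL41 encode ribosomal proteins and MYL6B a myosin light chain, so these 3 regions belong to neighbours of ERBB3. The RPS26 call was lost with trimmed peaks (limma, adjusted p = 0.235) and turned when the score was divided by peak length (9.22 points). The RPL41 call was lost with an equal number of top peaks (limma, adjusted p = 0.0848) and with the score divided by peak length (limma, adjusted p = 0.0629). The other 5 regions open in all 40 libraries did not pass between the lines. They were the +37.9 and +48.0 kb regions (limma, adjusted p = 0.364 and 0.129) and regions at RPS26 (−38.4 kb, −1.14 ± 1.13 SE, limma, adjusted p = 0.351), at the start of PA2G4 (+24.3 kb, 0.248 ± 0.196 SE, limma, adjusted p = 0.241) and in exon 3 of ZC3H10 (+46.1 kb, −2.21 ± 1.53 SE, limma, adjusted p = 0.181). The −32.9 kb region was open in 1 BT474R and 5 BT474 libraries and did not pass (Fisher's exact test, adjusted p = 0.214). The +39.4 kb region in intron 2 of ZC3H10 was open in 19 and 20 libraries, at list percentiles of 10.1 to 43.8 in BT474R and 40.2 to 54.8 in BT474, and the lines overlapped.

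In the common ranking, ligand calls in the ERBB3 locus were at neighbours of the gene and at single times. In EGF-BT474 at 1 h, the +48.0 kb region over the ESYT1 gene (chr12:56127580-56129828) had a common-region percentile of 95.7 against 87.4 (difference 8.33 ± 1.46 SE, limma, adjusted p = 0.00991; 3.26% of regions called). In the same comparison the −51.0 kb region had 6.78 against 19.2 (difference −12.4 ± 3.05 SE, limma, adjusted p = 0.0448), and in HRG-BT474 at 1 h it differed by −13.4 ± 3.05 (SE, limma, adjusted p = 0.0157). The +48.0 kb call and the HRG call were lost without any of the 4 libraries compared, and the EGF call at −51.0 kb in 14 of 20 fits without 1 library. All 3 changed sign when the score was divided by peak length. In the ranking within BT474R, the +37.9 kb region over ESYT1 and ZC3H10 was lower after HRG by 2.2 ± 0.559 points (SE, limma, adjusted p = 0.0482), a call lost in 16 of 20 fits without 1 library. Presence could be tested between ligand and control for 3 members in BT474 and 1 in BT474R for each ligand. Fisher's exact test called 0 of them, against 6.46% (EGF) and 8.98% (HRG) of testable regions in BT474 and 0.0% for both in BT474R, and 0 members had an unadjusted p under 0.05.

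ERBB4, which encodes the other heregulin receptor, was read for comparison, and it had fewer open regions in BT474R. Of its 14 regions, 7 to 13 (median 10.0) were open in a BT474 library and 2 to 7 (median 4.0) in a BT474R library. The region over its start at −0.5 kb was open in 20 BT474 and 0 BT474R libraries, and that at +0.9 kb in 20 and 6 (Fisher's exact test, adjusted p = 1.19e-05 for the latter). Peaks covered 0.201% to 0.339% of its body in BT474 and 0.0482% to 0.188% in BT474R. A set of 3 ERBB4 regions was open in all BT474 and no BT474R library, a pattern of 2.52% of all regions. None of the 48 EGFR, ERBB2 and ERBB3 regions had it, which is near that share. Of all regions testable for presence, 44.6% were called less often open in BT474R.

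The promoters of a list of 66 ligand and pathway genes were read with the same tests. One entry was not in the annotation under its listed name, 56 genes had a promoter region, and 45 were open in all 40 libraries. Between the lines, 8 of the 45 were higher and 23 lower in BT474R by limma, against 40.5% and 41.3% of all regions. Genes of EGFR ligands were on both sides of the threshold. AREG (amphiregulin) was lower by 25.5 ± 1.53 points of common-region percentile (SE, limma, adjusted p = 2.42e-16). HBEGF (heparin-binding EGF-like growth factor) was lower by 27.4 ± 1.65 points (SE, limma, adjusted p = 2.52e-16). The other 2 EGFR ligand promoters in this ranking, named after their values were seen, were BTC (betacellulin), lower by 30.4 ± 2.49 points (SE, limma, adjusted p = 6.44e-13), and TGFA (transforming growth factor alpha), which differed by −0.393 ± 0.287 points and did not pass (SE, limma, adjusted p = 0.205). Of 7 pathway promoters that could be tested for presence, 0 were open more often and 4 less often in BT474R by Fisher's exact test, against 27.2% and 44.6% of all testable regions. Besides ERBB4, these were the EGFR ligand gene EPGN (16 BT474 and 5 BT474R libraries, adjusted p = 0.00244), the neuregulin gene NRG2 (20 and 4, adjusted p = 7.41e-07) and STAT5B, a transcription factor (9 and 1, adjusted p = 0.0133).

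Ligand effects on the same 45 promoters were read pooled over times. For EGF-BT474, 1 was higher and 4 lower, against 17.1% of all regions called. Among them were ERBIN, an ERBB2-binding scaffold (−4.83 points, limma, adjusted p = 0.00244), PIK3CB (−2.41 points, limma, adjusted p = 0.00352) and SPRY4, a feedback inhibitor of MAPK signalling (17.3 points, limma, adjusted p = 0.0108). For HRG-BT474, 0 were higher and 3 lower, against 20% of all regions called, namely PIK3CB, CBLB (a ubiquitin ligase) and ERBIN. For EGF-BT474R, where 16.6% of all regions were called, JUN was lower by 3.73 points (limma, adjusted p = 0.0013) and MYC higher by 8.55 points (limma, adjusted p = 0.0171). The EGF effect at MYC, which encodes a transcription factor, was larger in BT474R than in BT474 by 10.2 ± 2.54 points (SE, limma, adjusted p = 0.0253; 3.46% of regions called). For HRG-BT474R limma called 0 of 45, against 2.83% of all regions.

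The promoters whose common-region percentile was most like that of each receptor over the 40 libraries were FOXO6, CEP68 and PYDC1 for EGFR (Pearson r 0.903, 0.903 and 0.9, of 9789 promoters). They were NADK2, GDAP1 and SETD5 for ERBB2 (0.668, 0.651 and 0.648, of 9762) and NOA1, CAMTA2 and TBC1D12 for ERBB3 (0.892, 0.871 and 0.865, of 9760). The ERBB2 start lies in the region of 34897 bp, whose best peak ranked 1 to 4 in every list. The r values for ERBB2 thus follow small shifts among the top ranks and say little about how open its promoter was. The points share their line and their list, and within BT474R the r of PYDC1 with EGFR was 0.315.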

How the data were processed

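Reads were trimmed by the authors with TrimGalore (version 0.6.6 in the submitters' processing notes), aligned to GRCh38 with BBMap and passed to Genrich for peak calling in each library, without mitochondrial reads and blacklisted regions. Genrich's options, not given in the sources used here, can change the width and number of peaks. The deposited signal of a peak is an area under its significance curve (lowest value 200). The deposited −log10 p-values and q-values entered no test. Since this signal moves with sequencing depth, only ranks within a library were compared, a coarser measure than counts of reads. No peak reached past a chromosome end of the reference, and genes came from GENCODE release 44.

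Groups were taken from the labels. Regions open in all 40 libraries were ranked within each library and fitted with limma 3.58.1 (R 4.3.3) with a mean-variance trend. Lines were compared over all 40 libraries with the 10 combinations of arm and time as a covariate, ligands within the 20 libraries of a line by group means, and the difference between lines in ligand effect over all 20 groups. Presence was compared by Fisher's exact test. Adjusted p-values are Benjamini-Hochberg values over all regions tested, with a threshold of 0.05. The limma and Fisher tests were tested on simulated data. The members and lists were chosen with earlier results of these data known. Regions at a start site or past a threshold in a line or ligand test were named by rule (at most 8 per locus), and the other members were named to account for all, after their values were seen. One pathway gene result named by the rule is not reported here. Tables and figures were made with pandas 2.3.3, numpy 2.4.6, scipy 1.17.1 and matplotlib 3.10.9 under Python 3.11.15.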

Additional observations from a re-analysis of the deposited data

How the results depend on the processing

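The alternatives were a fit over all 71600 regions with a missing peak as 0, members within 10 kb, quantile-normalized log2 scores, an equal number of top peaks (32479), peaks trimmed to 400 bp, 50% of a region covered, a score of at least 400, regions in at least 4 lists, the score per base, a replicate block, each library left out and, added after the data were seen, limma without a trend and ranks within a line. Over all regions, limma called 15 EGFR, 5 ERBB2 and 12 ERBB3 regions between lines, 8, 5, 8 and 3 members for EGF-BT474, HRG-BT474, EGF-BT474R and HRG-BT474R, 8, 8, 10 and 4 at any single time, and 7 for the difference between lines. That fit changed the regions tested, the missing peaks and the percentile together, and the cause was not tested. Within 10 kb, rank calls between lines were 1 for ERBB2 and 1 for ERBB3, presence calls 1 for ERBB2, and EGF-BT474 by time 1. Quantile normalization gave 5 ERBB2 regions and 0 for EGF-BT474. Equal top peaks gave 2 ERBB3 rank calls, 5 ERBB3 presence calls, 0 for EGF-BT474, and 1 by time for EGF-BT474 and 1 for HRG-BT474. Trimmed peaks gave 2 ERBB3 rank calls. They gave presence calls at 18 of 40 testable ERBB2 and 6 of 7 testable ERBB3 regions, against 26.9% (more often open in BT474R) and 41.4% (less often) of all testable trimmed regions. Coverage of 50% gave 4 ERBB2 and 5 ERBB3 presence calls, 1 by time for EGF-BT474, 1 for HRG-BT474 and 0 for EGF-BT474R, and 1 for the difference between lines. A score of at least 400 gave 0 for EGF-BT474 and 1 by time for EGF-BT474 and 1 for HRG-BT474. The score per base gave 0 for EGF-BT474, and by time 0 for EGF-BT474, HRG-BT474 and EGF-BT474R. Limma without a trend gave 0 ERBB2 regions and 0 by time for EGF-BT474R. The EGFR counts between lines stayed at 3 or 4 by rank, apart from the fit over all regions, and at 8 to 11 by presence. Leaving out 1 library gave 9 to 10 EGFR and 2 to 4 ERBB2 presence calls, 0 to 2, 0 to 1, 0 to 1 and 0 to 2 ligand calls in the order above, 0 to 5, 1 to 4, 0 to 2 and 0 to 1 by time, and 0 to 2 for the difference between lines. Only the score per base turned directions, and the cause was not tested. In the common ranking these were ERBB3 −51.0 kb at 1 h (6.75 for EGF-BT474, 2.9 for HRG-BT474), ERBB3 +48.0 kb (−11.2, EGF-BT474 at 1 h), EGFR +162.4 kb (5.77, HRG-BT474 at 1 h), and between lines ERBB3 −38.0 kb (9.22) and ERBB2 +70.0 kb (−3.85). In the ranking within a line they were, at 1 h in EGF-BT474, EGFR +162.4 kb (11.2), ERBB3 −51.0 kb (10.4) and ERBB3 +48.0 kb (−8.68), at 1 h in HRG-BT474, EGFR +162.4 kb (4.57) and ERBB3 −51.0 kb (4.66), over all times in HRG-BT474, EGFR −22.8 kb (−1.75) and EGFR +162.4 kb (3.32), and at 12 h in BT474R, EGFR +167.4 kb (−13.8 for EGF, −0.901 for HRG). Replicate numbers were not taken to pair the libraries, since same-numbered deviations correlated above 0.1 in 5 of 45 pairs of groups in BT474 (−0.237 to 0.617) and 11 of 45 in BT474R (−0.415 to 0.483). With the replicate number as a block the line counts were 4, 2 and 5 by rank and 9, 2 and 3 by presence for EGFR, ERBB2 and ERBB3, and the ligand counts were 1, 0, 0 and 0, as without it. The block moved ERBB3 +37.9 kb for HRG within BT474R (−2.2 points) from an adjusted p of 0.0482 to 0.0573 in limma. Depth was unknown, so a region without a peak may lie below what its library could show.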
